A study of Mus musculus with 40 samples.

Results

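The genes described here are 42 mouse genes that feed T cell growth with building blocks. They comprise amino acid carriers, enzymes that make asparagine, serine and aspartate, the folate and methionine cycles, polyamine synthesis, purine and pyrimidine synthesis, and the transcription factor ATF4 with 3 stress-response targets. They were chosen by symbol from the 21950 genes of an RNA-seq table, and all 42 were found there. The table covered 24 libraries in 8 groups of 3. Tconvs, labelled Tc, and thymus-derived Tregs (tTregs), labelled nTreg, were each profiled resting and activated, and came from spleens of C57BL/6 *Foxp3*-GFP reporter mice 2 to 4 months old, sorted on CD4 and GFP. iTregs were made from naive CD4+ T cells of 6-week-old mice with a GFP or RFP reporter of *Foxp3*, which were stimulated for 4 days by plate-bound anti-CD3 (0.5 µg/ml) and anti-CD28 (1 µg/ml) while TGF-β (2 ng/ml) and IL-2 were present. They were sorted by the *Foxp3* reporter and rested for 1 day, and were then profiled as resting iTregs, as iTregs restimulated through CD3 and CD28, and as iTregs restimulated with an inhibitor of ORAI or with cyclosporine A (CsA). ORAI is the pore of the store-operated calcium entry (SOCE) channel, and CsA blocks calcineurin and thereby NFAT. The labels name the former treatment only as ORAIinh, give no dose for either inhibitor, and list the CsA libraries under the cell type Treg. iTregs are a culture model of peripherally induced Tregs, and they differ from the other cells in donor age and culture as well as in kind, which cannot be told apart. The duration of activation and of restimulation before these libraries is not given in the sources used here. Nothing says that the 3 libraries of a group came from separate animals or cultures, so p-values measure the spread between these libraries.

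A dividing T cell takes up amino acids through paired carriers such as SLC7A5 with SLC3A2, and makes serine from a glycolytic intermediate through PHGDH, PSAT1 and PSPH. Serine hydroxymethyltransferases pass a carbon of serine to folate, and the MTHFD enzymes carry that carbon toward purine rings and thymidylate. Aspartate supplies nitrogen to purines, and both nitrogen and carbon to pyrimidines. ATF4, a transcription factor whose translation rises when amino acids run short, is known to drive the genes of asparagine and serine synthesis, several amino acid carriers, and the feedback genes *Trib3*, *Chac1* and *Sesn2*.

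ATF4 binds composite elements written TGATGNAAN, and MYC binds the E-box CACGTG. Both patterns were searched on both strands of the RefSeq promoter windows of GRCm38.p6, which run from 250 bases before to 50 bases after each annotated start. A window was matched for 36 of the 42 genes, and none was matched for *Slc7a5*, *Slc1a5*, *Slc38a1*, *Srm*, *Pfas* and *Dhodh*. TGATGNAAN was found in 5 of the 36 genes (13.9%), against 4.5% of all 27025 genes with a window. The list was chosen to hold known targets of ATF4, *Trib3* and *Chac1* among them, so this share is no result about the members. The stretches that hold it are shown because the 4 of these genes that were tested, *Asns*, *Got1*, *Trib3* and *Chac1*, recur in the comparisons that follow, with the match in capitals and each stretch written 5′ to 3′ on the strand of its gene.
Asns: cccagccacaTGATGAAACttcccgcacg
Got1: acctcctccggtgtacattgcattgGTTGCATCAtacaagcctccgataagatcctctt
Trib3: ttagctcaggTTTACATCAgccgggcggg
Chac1: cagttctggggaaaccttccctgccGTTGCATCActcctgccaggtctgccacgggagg
Slc7a11: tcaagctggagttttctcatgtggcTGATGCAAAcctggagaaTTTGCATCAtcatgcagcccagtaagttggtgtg
The stretch of *Asns* lies at chr6:7693214-7693242 (minus strand) and its match begins 23 bases before the start. That of *Got1* lies at chr19:43524675-43524733 (minus strand), with the match beginning 103 bases before the start. That of *Chac1* lies at chr2:119351023-119351081 (plus strand), with the match beginning 194 bases before the start. In *Trib3*, at chr2:152344029-152344057 (minus strand), the match lies 13 bases past the start, and in *Slc7a11*, at chr3:50443628-50443704 (minus strand), there are 2 matches, beginning 66 and 48 bases before it. The starts used here are those of RefSeq. In GENCODE M21 *Asns* and *Trib3*, both on the minus strand, start at 7693254 and 152344032. By those starts the match of *Asns* lies past the start and that of *Trib3* before it. The matches of *Got1*, *Trib3* and *Chac1* and the second match of *Slc7a11* read TGATGNAAN on the opposite strand. CACGTG was found in 4 of the 36 genes (11.1%), against 8.09% of all genes with a window, and no gene held both patterns. These shares are near each other, so the count of CACGTG is no result about the members. Of these 4 genes, 3 make purines and *Sms* makes the polyamine spermine.
Atic: acctcggggtCACGTGg
Impdh2: gctcgataagCACGTGgttacccagc
Paics: cctcggaaagCACGTGgagggacctg
Sms: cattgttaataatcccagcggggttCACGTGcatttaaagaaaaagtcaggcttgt
These stretches lie at chr1:71557139-71557155 (plus strand), chr9:108560316-108560341 (plus strand), chr5:76951089-76951114 (plus strand) and chrX:157492453-157492508 (minus strand). *Impdh2* and *Atic* start at 108560286 and 71557150 in GENCODE M21. By those starts the match of *Impdh2* lies past the start and that of *Atic* spans it. A match is a description of the letters and not of binding, and the chromatin and NFAT experiments of the study were not analysed here.

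The deposited values are gene counts divided by 1 size factor per library, called normalized counts here. Reads on genes, recovered from them, numbered 5256800 in the shallowest library, 15685234 in the deepest and 10801942 at the median. In a library 3 reads, the smallest count taken as detection, were worth between 2.12 and 5.45 normalized counts. The T cell markers found in the table (3 of 5) summed to between 10562 and 23678 normalized counts per library, and the summed markers of Tregs (*Foxp3*, *Il2ra*, *Ctla4* and *Ikzf2*) ranged from 25348 to 28206 in resting tTregs, from 13240 to 17057 in resting iTregs and from 458 to 478 in resting Tconvs. Most of the iTreg sum was *Il2ra*, with a mean of 11560. Activated Tconvs summed to between 5116 and 5357, again mostly *Il2ra* (mean 4351). At rest *Foxp3* averaged 7537 for tTregs, 1280 for iTregs and 10.4 for Tconvs. In that order *Ctla4* averaged 2897, 2144 and 221, and *Ikzf2* averaged 9403, 167 and 195. The *Ikzf2* libraries of resting iTregs overlapped those of resting Tconvs. The B cell, myeloid, NK and erythroid lists each summed to at most 30.9 in any library. The NK list was at 19.3 to 30.9 in resting Tconvs, at most 3.54 in activated Tconvs and 0 elsewhere, and its part in the comparisons with resting Tconvs was not tested. The list of 2 CD8 T cell genes, Cd8a and Cd8b1, summed to between 223 and 236 in resting Tconvs, 109.5 and 123 in activated Tconvs, 157 and 178 in resting tTregs, and 105 and 159.9 in activated tTregs, and to at most 126 in the 4 iTreg groups. It was thus lower in every library of activated Tconvs and of iTregs than in any of resting Tconvs or resting tTregs, and its part in those comparisons was not tested. A list of 4 proliferation genes averaged 104 in resting Tconvs, 276 in resting tTregs, 966 in activated tTregs, 1288 in activated Tconvs, and between 18469 and 22407 in the 4 iTreg groups. In bulk libraries fewer cells of a kind and less RNA per cell cannot be told apart.

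The 42 genes together made up between 0.301% and 0.306% of the normalized counts of resting Tconvs and between 0.675% and 0.697% of those of resting iTregs. Their sum was 31706 ± 187 normalized counts in resting Tconvs and 61102 ± 542 in activated Tconvs (SD, n = 3). In tTregs it was 38080.2 ± 1836 at rest and 47689 ± 1307 after activation. It was 74176 ± 369 in resting iTregs, 68992 ± 1407 after restimulation, 66049 ± 1702 with the ORAI inhibitor and 65587 ± 1656 with CsA. Resting Tconvs had the lowest group mean for 25 of the 42 genes, and resting iTregs had the highest for 15. These counts were not made over all genes, so they are no result about the 42 as a set. *Slc7a11*, the cystine carrier, did not pass the filter of 10 normalized counts in 3 libraries, with at most 11 reads in any library, so 41 genes were tested.

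**Figure D1:**
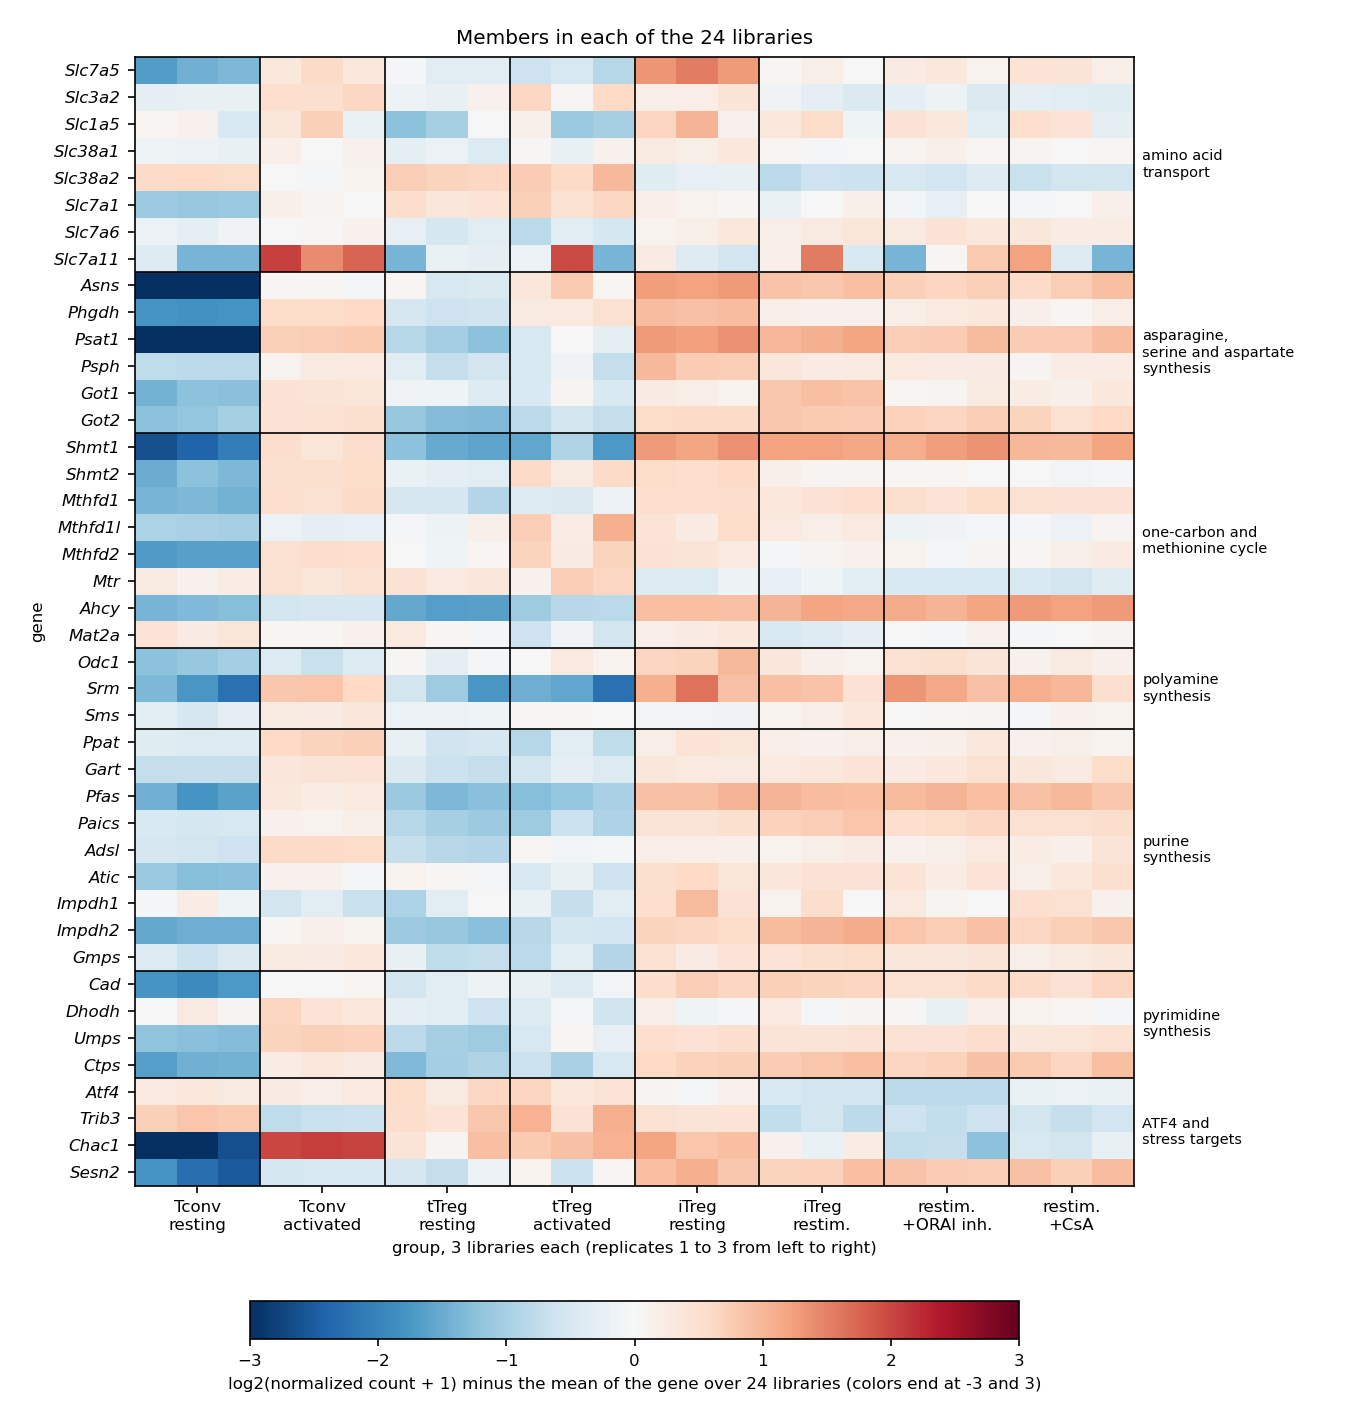
Each of the 42 genes (vertical axis, in blocks by role) in each of the 24 libraries (horizontal axis, 3 per group), as log2(normalized count + 1) minus the mean of that gene over all libraries, with colors ending at -3 and 3. *Asns*, *Psat1* and *Chac1* are far below their means in the resting Tconv libraries, and most genes of amino acid and nucleotide synthesis are above their means in the 12 iTreg libraries.

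Levels per kilobase of exon allow the genes to be compared with one another. On that scale resting Tconvs had their highest levels in *Atf4* (862 normalized counts per kilobase), *Mat2a* (816), which makes the methyl donor S-adenosylmethionine, and *Paics* (736), an enzyme of purine synthesis. In resting iTregs the highest were *Phgdh* (3059.8), the first enzyme of serine synthesis, *Ahcy* (2153), which clears S-adenosylhomocysteine, and *Impdh2* (2097), the committed step to guanine nucleotides. *Phgdh* also led in activated Tconvs (2425) and in both tTreg groups (1096 at rest and 2067 after activation). After restimulation *Impdh2* (2796) and *Ahcy* (2504) stood above *Phgdh* (1821) in iTregs. No test compares levels between genes.

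Activation of Tconvs raised most of these genes. Of the 41 tested, 31 were called higher and 3 lower, where 24.5% of all 11495 genes tested were called higher and 25.7% lower, and the median log2 fold change was 1.12 against -0.04 over all genes. To be called, a gene had to pass both a Benjamini-Hochberg adjusted p of 0.05 in limma and a log2 fold change of 0.5 in either direction, on log2(normalized count + 1), a scale that understates the change of low genes. All 6 genes of asparagine, serine and aspartate synthesis rose, with a median of 2.04, and their sum went from 2887 ± 75.4 to 13987 ± 219 normalized counts. Of the purine genes 8 of 9 rose, of the pyrimidine genes 3 of 4, of the one-carbon genes 6 of 8, of the polyamine genes 3 of 3 and of the 7 carriers tested 3.

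*Psat1*, the transaminase of serine synthesis, was at 187, 148 and 186 normalized counts in resting Tconvs and at 3179, 3226 and 3304 in activated Tconvs. Every activated library lay above every resting one, and the log2 fold change was 4.22 ± 0.13 (SE, adjusted p = 1.48e-12). *Asns*, asparagine synthetase, went from 46.3, 43.1 and 27.2 to 498, 505 and 472, again without overlap, a change of 3.66 ± 0.20 (SE, adjusted p = 9.91e-10). *Phgdh* was at 1184, 1142 and 1169 at rest and at 5988, 5925 and 6169.7 after activation. Its change of 2.37 ± 0.07 (SE, adjusted p = 8.6e-13) was smaller than those of *Psat1* and *Asns* but rested on higher counts, and the phosphatase *Psph*, the last step of serine synthesis, rose by 1.02 ± 0.14 (SE).

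The cytosolic and mitochondrial forms of an enzyme could be compared in this response. *Got1*, the cytosolic aspartate aminotransferase, was at 323, 366 and 364 in resting and at 1165, 1139 and 1122 in activated Tconvs, a change of 1.70 ± 0.13 (SE, adjusted p = 2.54e-08). *Got2*, the mitochondrial form, was at 718, 748 and 845 and at 2254, 2305 and 2341, a change of 1.58 ± 0.08 (SE, adjusted p = 6.88e-10). The changes of both forms were of like size, although *Gm45760*, which overlaps *Got2*, covers 9.0% of its exon bases. *Shmt1*, the cytosolic serine hydroxymethyltransferase, went from 54.5, 63.8 and 80.7 to 497, 443 and 499.5 (2.85 ± 0.19, SE, adjusted p = 7.38e-09), while *Shmt2*, the mitochondrial form, went from 684, 822 and 753 to 2669, 2678 and 2806 (1.85 ± 0.09, SE, adjusted p = 1.93e-10). The rise of *Shmt1* started from a level of 17.1 normalized counts per kilobase in resting Tconvs, against 242 for *Shmt2*, and *Shmt1* was still below *Shmt2* on that scale after activation, with 124 against 874.

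In the folate and methionine cycles, *Mthfd2*, a mitochondrial folate dehydrogenase, rose by 2.14 ± 0.10 (SE, adjusted p = 1.5e-10) on the log2 scale, the largest change after that of *Shmt1*. *Mthfd1*, the cytosolic trifunctional enzyme, was at 321, 331 and 315 at rest and at 1184, 1148 and 1249.5 after activation (1.89 ± 0.10, SE, adjusted p = 8.85e-10). *Mthfd1l*, the mitochondrial formate synthetase, was at 452, 451 and 441 and at 772, 731 and 741 (0.74 ± 0.16, SE, adjusted p = 0.000859). Both rose without overlap between the groups, the cytosolic enzyme by more. *Ahcy* rose by 0.82, whereas *Mtr*, methionine synthase, and *Mat2a* were not called, with 0.22 and -0.27.

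Among the nucleotide genes, *Umps*, which completes uridine monophosphate, and *Pfas*, an enzyme of the purine ring, had the largest changes of their groups, 1.94 ± 0.11 (SE, adjusted p = 1.82e-09) and 1.88 ± 0.10 (SE, adjusted p = 9.29e-10). *Umps* was at 399, 385 and 371 in resting and at 1449, 1512 and 1484 in activated Tconvs, and *Pfas* at 264, 212 and 239 and at 899, 849.5 and 888. Neither gene overlapped between the groups. The 2 forms of inosine monophosphate dehydrogenase moved apart: *Impdh2* went from 1444, 1529 and 1525 to 4402, 4683 and 4484 (1.59 ± 0.08, SE, adjusted p = 4.43e-10), whereas *Impdh1* went from 525, 634 and 501 to 374, 436 and 342. The fall of *Impdh1* by 0.52 ± 0.21 (SE, adjusted p = 0.04) lost its call in 8 alternative fits, 4 of which left out 1 library (replicate 1 or 3 of activated or replicate 1 or 2 of resting Tconvs), with sizes between 0.42 and 0.56. *Cad*, which starts pyrimidine synthesis, rose by 1.82 and *Ctps*, which makes CTP, by 1.77, while *Dhodh*, the mitochondrial step, was not called at 0.33. *Ppat* and *Paics*, which start purine synthesis and add to its ring, lie on opposite strands (chr5:76913249-76951578, minus, and chr5:76951307-76967509, plus, in GENCODE M21 of GRCm38) and overlap, so 6.15% and 8.67% of their exon bases could not be told apart without strand. They rose by 1.06 and 0.62.

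Of the carriers, *Slc7a5*, the large neutral amino acid carrier, was at 46.3, 54.4 and 57.9 normalized counts at rest and at 186, 224 and 185 after activation. That is a rise of 1.89 ± 0.15 (SE, adjusted p = 3.5e-08) without overlap, and its partner *Slc3a2* rose by 0.77 from a mean of 1612. *Slc7a6*, another light chain of that partner, was not called (0.25), with libraries at 478, 444 and 505 and at 549, 557 and 589. The cationic carrier *Slc7a1* rose by 1.19. *Slc38a1* and *Slc38a2*, neighbouring genes on chromosome 15 for neutral amino acid carriers, went different ways. *Slc38a2* was at 2586, 2611 and 2527 at rest and at 1726, 1706 and 1881 after activation and fell by 0.54 ± 0.09 (SE, adjusted p = 0.000104). *Slc38a1*, at 1748, 1691 and 1647 and at 2192, 1937 and 2097, was higher in every activated library but under the fold threshold (0.29). *Slc1a5*, the glutamine carrier, was at 1132, 1198 and 796 and at 1392, 1788 and 954, with overlap, and was lowest in replicate 3 in 6 of the 8 groups.

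The ATF4 group did not move as 1 block. *Atf4* mRNA (chromosome 15, 80255184 to 80257541, plus strand) was at 2047, 2061 and 1993 normalized counts in resting and at 1965, 1918 and 2042 in activated Tconvs, with overlapping libraries and a log2 fold change of -0.04 ± 0.10 (SE). *Chac1*, which degrades glutathione (chromosome 2, 119351229 to 119354381, plus strand), was at 5.14, 2.81 and 7.02 at rest, on 5, 3 and 8 reads, and at 198, 209 and 201 after activation, on 220, 242 and 284 reads. Its change of 5.15 ± 0.25 (SE, adjusted p = 2.49e-10) was the largest of all 41 genes, and it was 5.41 with a pseudocount of 0.1 and 4.40 with a pseudocount of 5. *Sesn2*, a sensor in amino acid signaling, rose by 1.68 ± 0.21 (SE). *Trib3*, a pseudokinase that restrains ATF4 (chromosome 2, 152337422 to 152344032, minus strand), was at 1006, 1098 and 1066 in resting and at 359, 389 and 389.9 in activated Tconvs. It fell by 1.48 ± 0.14 (SE, adjusted p = 4.14e-07), and no library overlapped between the groups. The polyamine genes rose, with *Srm*, spermidine synthase, at 48.3, 36.6 and 25.5 and at 219, 223 and 188 (2.52 ± 0.31, SE, adjusted p = 5.01e-06), and with *Odc1* and *Sms* at 0.62 and 0.66. *Srm* was lowest in replicate 3 in all 8 groups.

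tTregs responded to activation with fewer and smaller changes in these genes. Of the 41 genes, 11 were called higher and 1 lower (background 11.9% higher and 10.0% lower), with a median of 0.18 against 0.00 over all genes. The largest rise was that of *Phgdh*, from 2880.1, 2629 and 2666 normalized counts to 4889.6, 4951 and 5573, with no overlap and a log2 fold change of 0.91 ± 0.07 (SE, adjusted p = 5.97e-07). The others were *Psat1* (0.79), *Adsl* (0.78), which acts in the purine ring and on the way to AMP, *Umps* (0.74), *Shmt2* (0.72), *Ahcy* (0.71), *Mthfd1l* (0.69), *Asns* (0.68), *Got2* (0.57), *Mthfd2* (0.54) and *Impdh2* (0.51). *Shmt2* was at 1687, 1592 and 1550.2 in resting and at 2843, 2326 and 2843 in activated tTregs, all activated libraries being above all resting ones, whereas *Shmt1* was at 145, 119 and 114 and at 116, 183 and 104, with overlap. *Mat2a* fell by 0.52, from a mean of 3098 to 2173. None of the 7 carriers, 3 polyamine genes and 4 genes of the ATF4 group was called by limma, where 4 of these 14 had an unadjusted p under 0.05 and edgeR and DESeq2 each called 1, *Slc3a2*. *Asns* overlapped between the groups, at 511, 350.4 and 359 and at 618, 842 and 510.4. The calls of *Asns*, *Mat2a*, *Mthfd2* and *Impdh2* were each lost in 3 of the fits that left out 1 library, and those of *Mthfd1l* and *Got2* in 1. When only the tTreg groups were fitted, limma gave *Asns*, *Mat2a* and *Mthfd1l* adjusted p = 0.0644, 0.0605 and 0.0535, and these calls were lost. Under quantile normalization those of *Mthfd2* and *Impdh2* were lost, at log2 fold changes of 0.47 and 0.46.

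The difference between the responses was tested as an interaction in the same fit, and it asks whether Tconvs and tTregs change these genes unequally on activation. It was called positive, a larger rise in Tconvs, for 25 of 41 genes and called negative for 2 (background 17.0% higher and 17.7% lower), with a median of 1.02 against -0.05 over all genes. All 6 genes of asparagine, serine and aspartate synthesis were among the 25, as were 7 of 9 purine, 3 of 4 pyrimidine, 4 of 8 one-carbon and 2 of 7 carrier genes. *Chac1* was at 64.4, 51.9 and 92.3 in resting and at 84.8, 89.9 and 102 in activated tTregs, with overlap, and its response differed by 4.71 ± 0.36 (SE, adjusted p = 1.3e-07). *Psat1* was at 1069.5, 951 and 823 and at 1378, 1956 and 1604 in tTregs, a rise of 0.79, and its response differed by 3.43 ± 0.18 (SE, adjusted p = 2.71e-09). *Srm* was at 84.4, 58.4 and 36.4 and at 44.4, 41.6 and 25.4 in tTregs, on 14 to 93 reads, and differed by 3.15 ± 0.44 (SE, adjusted p = 5.25e-05). For *Got1*, at 802, 792 and 658 and at 632, 911 and 630.3 in tTregs with overlap, the difference was 1.77 ± 0.18 (SE, adjusted p = 2.5e-06). *Slc7a5* was at 143, 117 and 117 in resting and at 97.0, 106 and 81.7 in activated tTregs, so that its libraries went down there and up in Tconvs, and the difference was 2.29 ± 0.21 (SE, adjusted p = 8.02e-07).

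*Trib3* and *Slc38a2* were the genes whose response was lower in Tconvs, by 1.75 ± 0.20 and 0.63 ± 0.13 (SE). *Trib3* was at 882, 820.1 and 1085 in resting and at 1267, 834 and 1304 in activated tTregs, and *Slc38a2* at 2892, 2766 and 2669.8 and at 2936, 2565 and 3397. Both overlapped between the tTreg groups. The differences of *Ahcy* (0.10 ± 0.10), *Mthfd1l* (0.05 ± 0.22), *Slc38a1* (0.02 ± 0.13), *Atf4* (-0.02 ± 0.14) and *Mtr* (0.08 ± 0.19, all SE) were the smallest. *Paics*, called at 0.52, lost its call in 4 of the fits that left out 1 library.

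**Figure D2:**
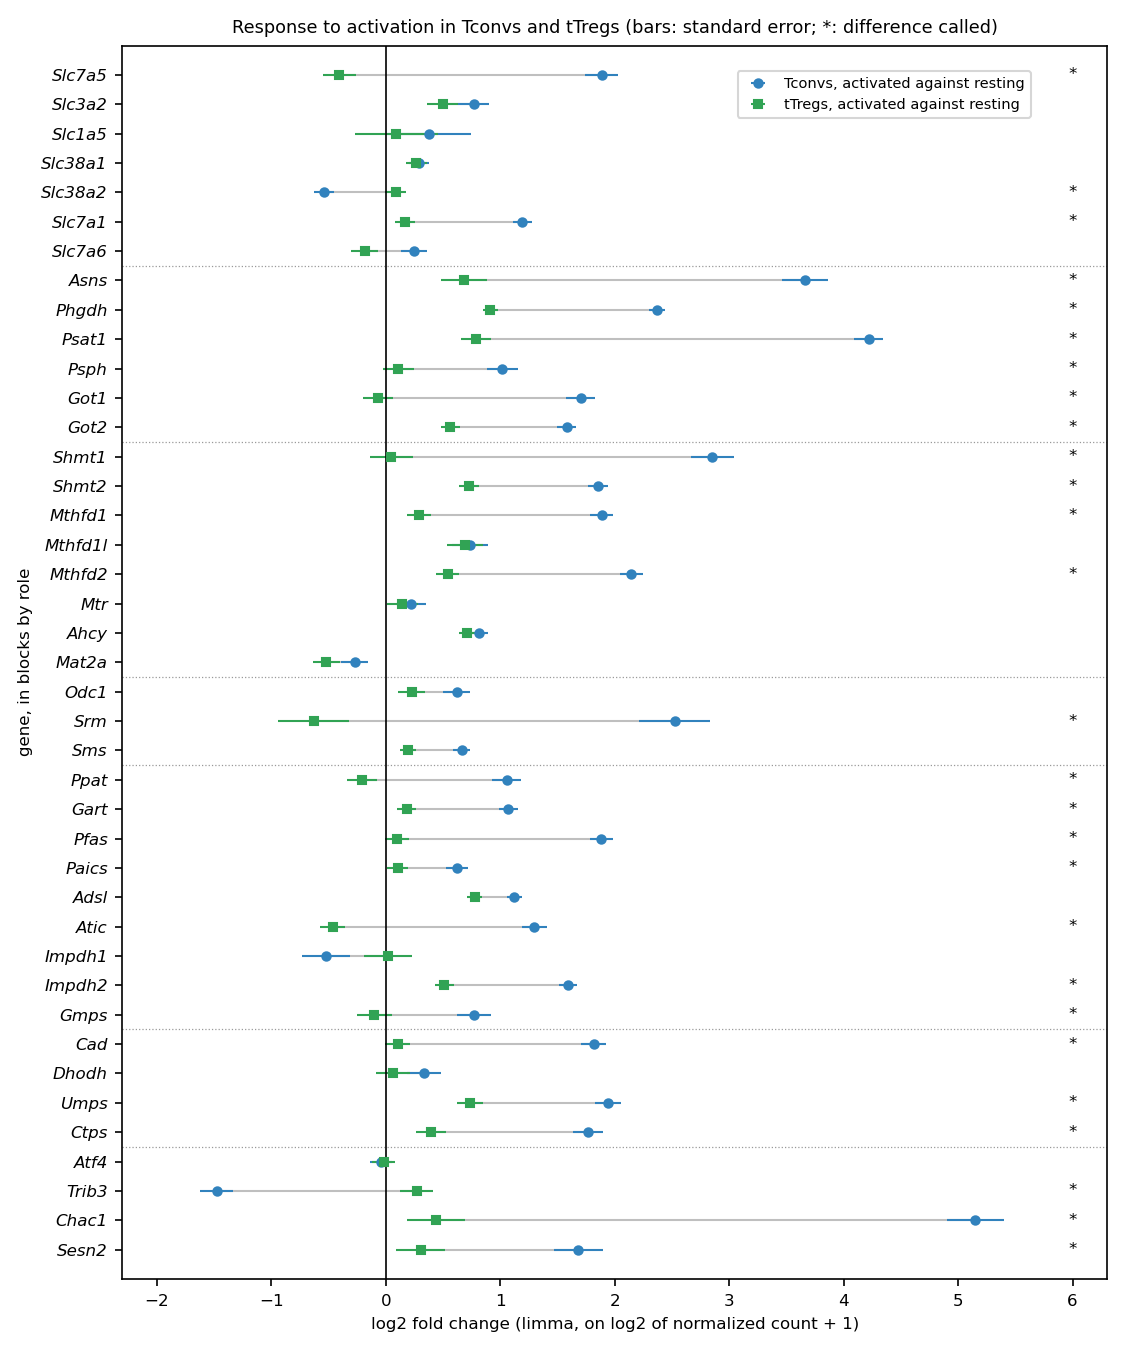
Log2 fold change of activated over resting cells (horizontal axis, limma, bars are standard errors) for each of the 41 genes tested (vertical axis, in blocks by role), in Tconvs (circles) and tTregs (squares), with a star where the difference between both was called. The circles of *Chac1*, *Psat1* and *Asns* lie at 5.15, 4.22 and 3.66 and their squares at 0.44, 0.79 and 0.68, and *Trib3* is the gene whose circle lies farthest to the left, at -1.48.

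Resting tTregs already differed from resting Tconvs in many of these genes. 16 of 41 were called higher in tTregs and 1 lower (background 20.5% higher and 18.2% lower), with a median of 0.30 against -0.02 over all genes. Of the serine, asparagine and aspartate genes 4 of 6 were higher, and of the one-carbon genes 5 of 8, but of the purine genes 1 of 9, which was *Atic* (1.25), the enzyme that closes the purine ring. *Asns* was at 407 ± 90.2 normalized counts in resting tTregs against 38.9 ± 10.2 in resting Tconvs (SD, n = 3), a difference of 3.37 ± 0.20 (SE, adjusted p = 3.44e-09). The next largest after *Chac1* (3.58) and *Asns* were *Psat1* (2.44), *Sesn2* (1.72), *Mthfd2* (1.64), *Slc7a1* (1.54) and *Cad* (1.46). *Slc7a1* was at 366, 358 and 361 in resting Tconvs and at 1136, 998 and 1039.9 in resting tTregs, and no other carrier but *Slc7a5* (1.23) was called. *Odc1*, which commits ornithine to polyamines, was higher by 1.03. *Dhodh* was lower by 0.53 ± 0.15 (SE), a call that was lost without replicate 2 of resting Tconvs (size 0.45) or replicate 3 of resting tTregs (0.42).

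Resting iTregs, profiled 1 day after the end of induction, held the highest levels of many members. Against resting Tconvs, 30 of 41 genes were higher and 2 lower (background 32.8% higher and 30.8% lower), with a median of 1.62 against 0.02. Against resting tTregs, 27 were higher and 2 lower (background 32.3% higher and 31.1% lower), with a median of 0.94 against 0.02. Both comparisons share the iTreg libraries, and the resting Tconv and tTreg libraries also enter the comparisons above. All 9 purine genes were higher than in resting Tconvs and 8 of 9 higher than in resting tTregs, and the purine sum was 20637 ± 137 normalized counts against 8689 ± 126 and 8455 ± 637. The proliferation genes were also higher in iTregs, with sums of 22147 to 22694 against at most 317 in the resting libraries of the other cells. The part of proliferation in the difference of these members was not tested.

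*Asns* was at 1167, 1124 and 1188 normalized counts in resting iTregs, 4.90 ± 0.20 (SE, adjusted p = 1.58e-11) above resting Tconvs and 1.53 ± 0.20 (SE, adjusted p = 7.1e-06) above resting tTregs. *Psat1* was at 4684, 4545 and 4984, higher by 4.77 and 2.33. *Shmt1* was at 841, 778 and 889, higher by 3.65 and 2.72. These genes lay above every library of the resting Tconvs and tTregs. *Ahcy* was at 6078, 6070.3 and 5971, against 1229, 1306 and 1339 in resting Tconvs and 1113, 1035 and 1043 in resting tTregs. Its difference from tTregs (adjusted p = 8.55e-13) was the largest after that of *Shmt1*, whereas in resting tTregs it lay below resting Tconvs in every library. *Impdh2* was at 6723, 6469 and 6168, higher than in resting Tconvs by 2.10, and *Impdh1* was at 779, 1055 and 738, higher by 0.62 ± 0.21 (SE, adjusted p = 0.0145), a call that was lost without replicate 2 of resting iTregs (0.46) or replicate 3 of resting Tconvs (0.55). *Slc38a2* and *Mtr* went the other way. *Slc38a2* was at 1341, 1461 and 1483, lower by 0.85 than in resting Tconvs and by 0.96 than in resting tTregs, and *Mtr* was at 237, 235 and 281, lower by 0.53 and 0.68. Among the other large differences from resting Tconvs were *Chac1* (4.09), *Sesn2* (3.10), *Srm* (2.97), *Slc7a5* (2.87), *Phgdh* (2.71) and *Pfas* (2.53). The call of *Mtr* against resting Tconvs was lost without replicate 1 or 2 of resting iTregs, and those of *Slc38a1* (0.54) and *Slc7a6* (0.57) against resting tTregs were lost without replicate 3 and replicate 2 of resting tTregs. That of *Slc38a1* was also lost under quantile normalization, at 0.34.

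Against activated Tconvs, 14 of 41 genes were higher in resting iTregs and 2 lower (background 22.9% higher and 18.7% lower), with a median of 0.18 against 0.02. The genes that were higher came from every role: *Sesn2* (1.42), *Ahcy* (1.41), *Odc1* (1.27), *Asns* (1.24), *Impdh1* (1.15), *Trib3* (1.11), *Slc7a5* (0.98), *Shmt1* (0.80), *Pfas* (0.64), *Mthfd1l* (0.64), *Cad* (0.62), *Psph* (0.60), *Psat1* (0.55) and *Impdh2* (0.51). *Sesn2* was at 182, 189.7 and 189.6 normalized counts in activated Tconvs and at 493, 558 and 461 in resting iTregs, with an adjusted p of 5.13e-05 in limma. *Odc1* was at 403, 336 and 403 and at 847, 864 and 1051 (adjusted p = 4.2e-07). Neither gene overlapped between the groups. *Chac1*, at 112, 87.8 and 91.8 in resting iTregs, was lower by 1.06 ± 0.25 (SE, adjusted p = 0.00237), and *Mtr* was lower by 0.75 ± 0.13 (SE). *Mthfd1* (0.01 ± 0.10), *Slc7a1* (0.05 ± 0.08) and *Shmt2* (0.06 ± 0.09, all SE) differed least. The call of *Impdh2* was lost in 6 alternative fits, with sizes between 0.44 and 0.50.

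**Figure D3:**
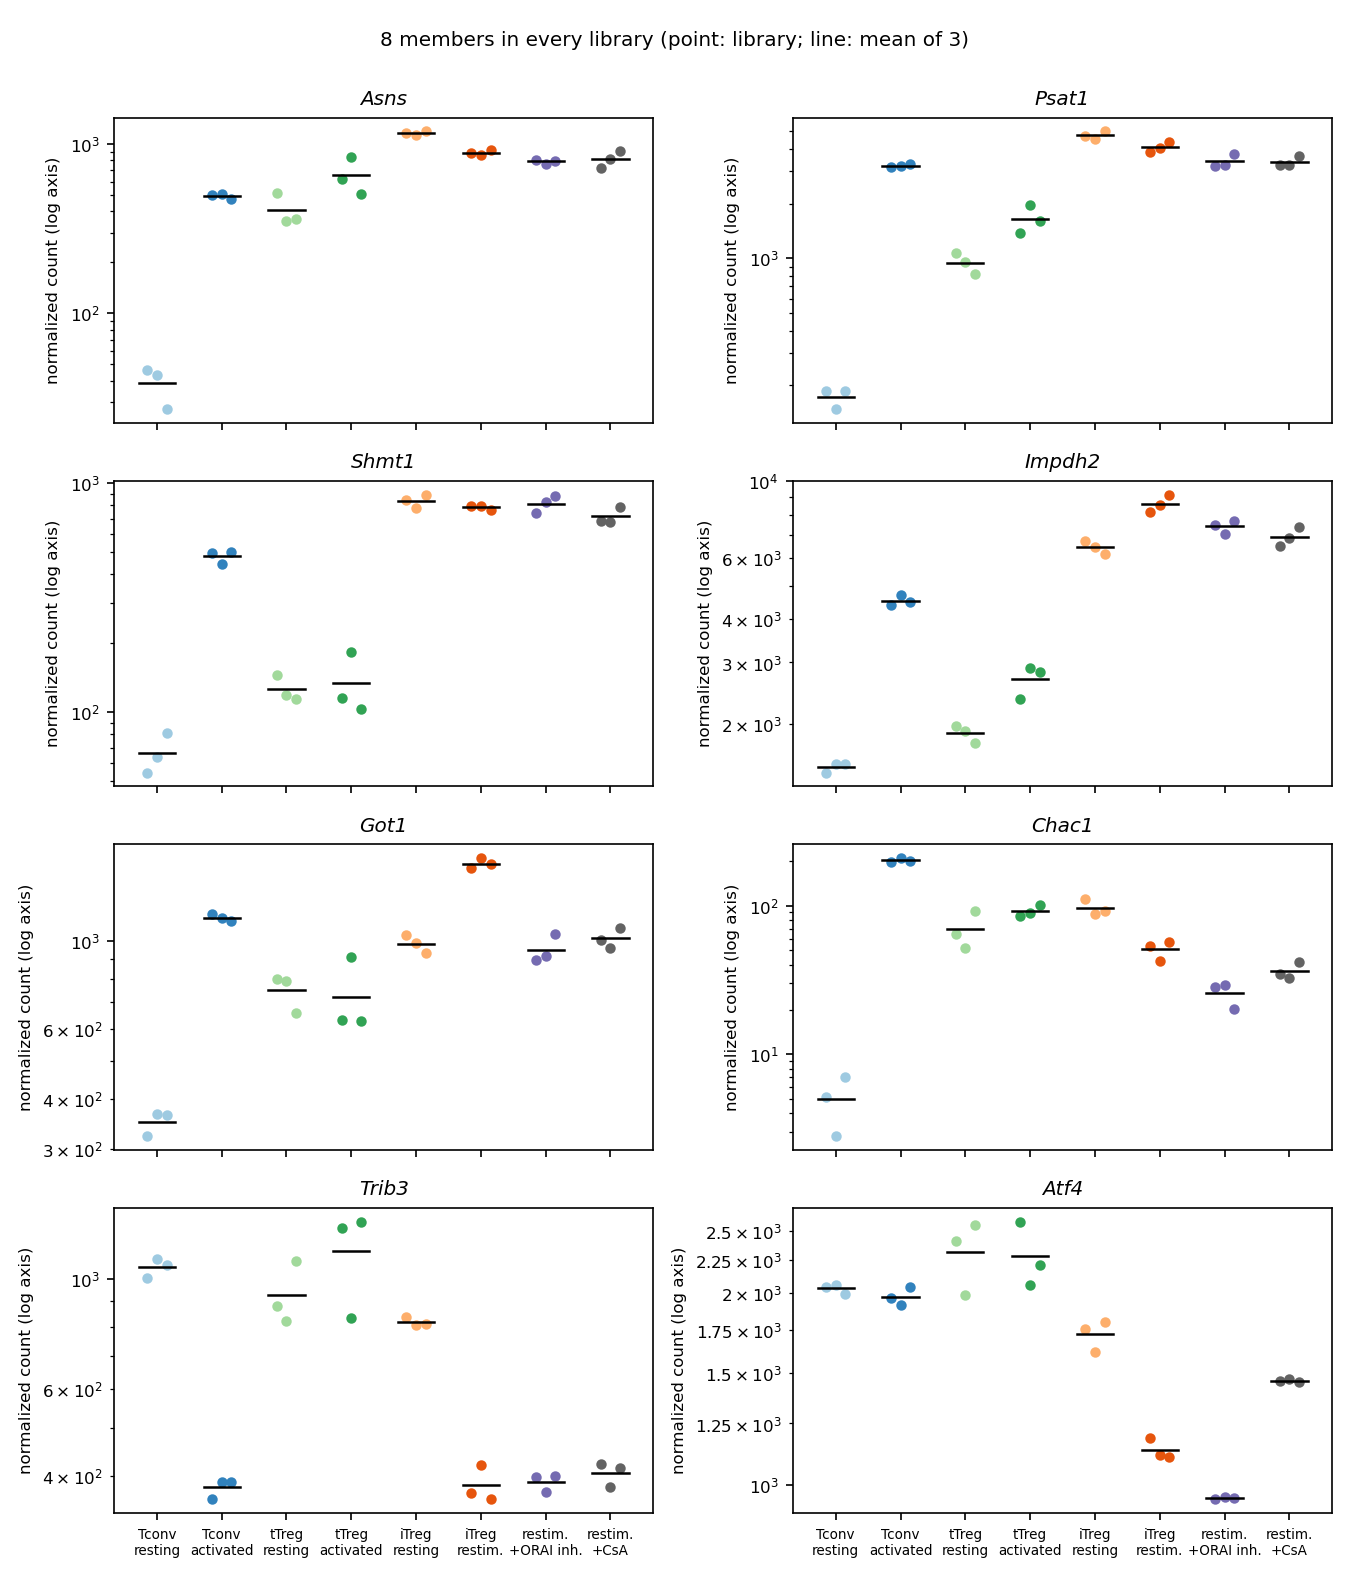
Normalized counts (vertical axes, log scale) of 8 genes in every library (points) of the 8 groups (horizontal axis), with a line at each group's mean of 3. *Got1* is highest in restimulated iTregs, at 1521 to 1614, and *Trib3* is low in activated Tconvs and in the 3 restimulated iTreg groups, at 359 to 422.

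More of these genes were lower than higher in restimulated iTregs, against resting iTregs. The resting cells were profiled after 1 day of rest, and the duration of restimulation is not given. Time since induction may thus differ between both groups, and it cannot be told apart from restimulation. 1 of 41 genes was called higher and 9 were called lower (background 6.70% higher and 6.13% lower of 11105 genes tested in the 12 iTreg libraries), with a median of -0.14 against -0.01 over all genes. No purine or pyrimidine gene was called by limma, where 3 of these 13 had an unadjusted p under 0.05 and edgeR and DESeq2 called 0. The gene that rose was *Got1* (chromosome 19, 43499752 to 43524605, minus strand), which was at 1034, 988 and 931 normalized counts in resting and at 1521, 1614 and 1559 in restimulated iTregs. No library overlapped, and the change was 0.67 ± 0.07 (SE, adjusted p = 5.2e-06), while *Got2* was at 2473, 2516 and 2517 and at 2934, 2892 and 2826, also without overlap but under the fold threshold (0.21 ± 0.06, SE, adjusted p = 0.012).

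The falls lay in serine synthesis, neutral amino acid uptake, methyl donor and polyamine synthesis and the ATF4 group. *Slc7a5* was at 375, 434 and 366 in resting and at 154, 168 and 148 in restimulated iTregs, a change of -1.31 ± 0.10 (SE, adjusted p = 2.77e-07). Its partner *Slc3a2* fell by 0.53, from a mean of 2255 to 1564, a call that was lost without replicate 3 of resting (0.46) or of restimulated (0.45) iTregs. *Phgdh* was at 7671, 7434 and 7715 and at 4651, 4465 and 4468, a change of -0.75 ± 0.05 (SE, adjusted p = 8.15e-08), and *Psph* fell by 0.54, lost without replicate 1 of resting iTregs (0.47). *Psat1* and *Asns* were lower in every restimulated library but under the fold threshold, at -0.21 and -0.39. *Mat2a* was at 3302, 3422 and 3552 and at 2071, 2192 and 2333 (-0.64 ± 0.06, SE, adjusted p = 2.62e-06), although the overlapping gene *Particl* covers 11.3% of its exon bases. *Odc1* fell by 0.57, from 847, 864 and 1051 to 681, 601 and 579, lost without replicate 3 of resting iTregs (0.47).

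Of the 4 genes of the ATF4 group, 3 fell on restimulation. *Trib3* was at 838, 808 and 810.4 normalized counts in resting and at 369.6, 420.2 and 359 in restimulated iTregs (-1.10 ± 0.08, SE, adjusted p = 8.37e-08). *Chac1* was at 112, 87.8 and 91.8 and at 53.4, 42.6 and 57.2, on 38 to 63 reads after restimulation (-0.92 ± 0.19, SE, adjusted p = 0.00221). *Atf4* itself was at 1756, 1615 and 1799.8 and at 1184, 1114 and 1108 (-0.60 ± 0.06, SE, adjusted p = 1.77e-06). None of these overlapped between the groups. *Sesn2* overlapped and was not called (-0.17 ± 0.09, SE). Among the pairs of enzymes, *Shmt1* and *Shmt2* were at -0.09 ± 0.08 and -0.45 ± 0.05, *Mthfd1* and *Mthfd1l* at -0.10 ± 0.06 and -0.14 ± 0.08, and *Impdh1* and *Impdh2* at -0.41 ± 0.15 and 0.41 ± 0.06 (SE), none of them called. *Impdh2* was at 6723, 6469 and 6168 in resting and at 8126, 8552 and 9136 in restimulated iTregs, so that every restimulated library was higher, with an adjusted p of 0.000169 in limma. The 3 erythroid markers summed to between 21.1 and 26.2 normalized counts in resting iTregs and to at most 11.4 in the other iTreg libraries, and their part in these changes was not tested. The proliferation list averaged 22407 in resting and 19545 in restimulated iTregs.

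The inhibitors were compared with restimulation alone to ask which of these changes depend on SOCE and calcineurin. With the ORAI inhibitor 0 genes were higher and 2 lower than in restimulated iTregs (background 1.50% higher and 1.79% lower), and with CsA 0 were higher and 1 lower (background 1.57% higher and 1.35% lower). Of the genes with a positive log2 fold change, called or not, 4 had an unadjusted p under 0.05 in limma with each inhibitor, and edgeR and DESeq2 called 0. *Got1* was at 895, 917 and 1038 normalized counts with the ORAI inhibitor and at 1004, 962 and 1077 with CsA, all below the restimulated libraries and close to the 1034, 988 and 931 of resting iTregs. Against restimulated iTregs its changes were -0.72 ± 0.07 (SE, adjusted p = 1.79e-05) and -0.63 ± 0.07 (SE, adjusted p = 7.55e-05). Of the 10 genes that changed on restimulation, *Got1* alone was called in the opposite direction with the ORAI inhibitor and with CsA. The same share among all genes that changed on restimulation was not counted. The count of 1 in 10 is therefore no result about these genes as a set. All 3 comparisons share the restimulated libraries.

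None of the 9 genes that fell on restimulation was called higher under either inhibitor, a count that was not set against all genes either. *Trib3* stayed at 398, 371 and 399 with the ORAI inhibitor and at 422, 379.7 and 415 with CsA, overlapping the restimulated libraries, with changes of 0.03 ± 0.08 and 0.08 ± 0.08 (SE). *Slc7a5* was at 179, 185 and 159.7 and at 198, 195 and 169.5, with changes of 0.15 ± 0.10 and 0.26 ± 0.10 (SE). *Phgdh* was at 4662, 4974 and 5079.8 and at 4489, 4242 and 4624, against 7434 to 7715 in resting iTregs. All 3 genes were below every resting library in every treated library. *Mat2a* was at 2865, 2774 and 3117 and at 2772, 2853 and 3036, above every restimulated and below every resting library, with changes of 0.41 ± 0.06 (SE, adjusted p = 0.000767) and 0.39 ± 0.06 (SE, adjusted p = 0.00132) that were under the fold threshold. *Impdh2* was at 7492, 7039 and 7696 and at 6482, 6872 and 7392, below every restimulated library, with changes of -0.22 ± 0.06 and -0.32 ± 0.06 (SE). *Paics* changed by -0.19 and -0.27 and *Mthfd1l* by -0.36 and -0.31, also under the threshold.

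*Chac1* fell further with the ORAI inhibitor. It was at 28.6, 29.0 and 20.2 normalized counts, on 23 to 33 reads, below every restimulated library, a change of -0.96 ± 0.19 (SE, adjusted p = 0.00574). With CsA it was at 34.8, 32.8 and 41.6, on 32 to 52 reads, also below every restimulated library but not called (-0.47 ± 0.19, SE, adjusted p = 0.149), and the difference between the inhibitors was not called either (-0.48 ± 0.19, SE, adjusted p = 0.346).

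Between the inhibitors, 1 gene of 41 was called, lower with the ORAI inhibitor (background 0.0991% higher and 0.261% lower). Of the genes with a positive log2 fold change, called or not, 3 had an unadjusted p under 0.05 in limma, and edgeR and DESeq2 called 0. The gene called was *Atf4*, at 951, 959 and 955 normalized counts with the ORAI inhibitor and at 1454, 1468 and 1453 with CsA, a difference of -0.61 ± 0.06 (SE, adjusted p = 5.96e-05 in limma) without overlap. The restimulated libraries, at 1184, 1114 and 1108, lay between both, and resting iTregs, at 1756, 1615 and 1799.8, above all. Against restimulation alone *Atf4* changed by -0.25 ± 0.06 (SE, adjusted p = 0.0127) with the ORAI inhibitor and by 0.36 ± 0.06 (SE, adjusted p = 0.00115) with CsA, both under the fold threshold. The other 3 genes of this group differed between the inhibitors by -0.06 ± 0.08 (*Trib3*), -0.48 ± 0.19 (*Chac1*) and -0.06 ± 0.09 (*Sesn2*, all SE), and *Got1* differed by -0.10 ± 0.07 (SE).

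**Figure D4:**
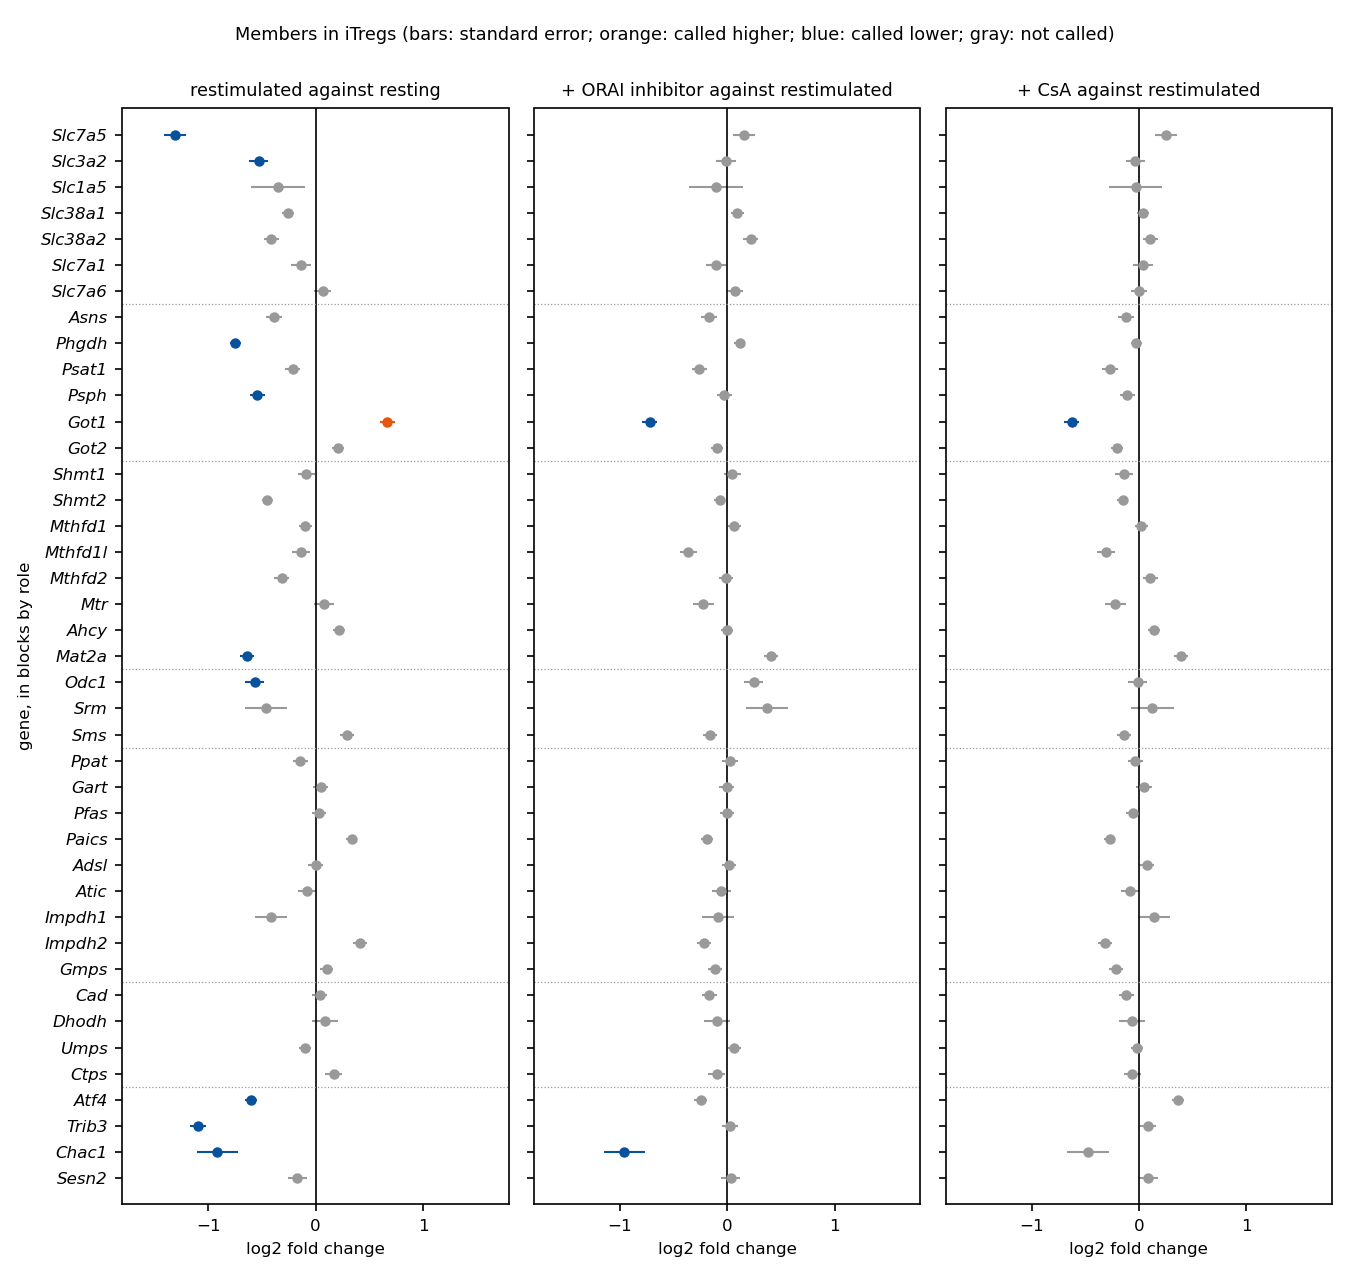
Log2 fold change (horizontal axes, limma, bars are standard errors) of the 41 genes tested (vertical axis, in blocks by role) in iTregs, for restimulated against resting cells and for each inhibitor against restimulation alone, colored where called. *Got1* is called higher on restimulation (0.67) and lower with either inhibitor (-0.72 and -0.63), and *Slc7a5* (-1.31) and *Trib3* (-1.10) have the largest falls on restimulation.

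Other genes of the same pathways, 133 by list and 126 of them tested, were counted beside the members. On activation of Tconvs 62 (49.2%) rose and 12 (9.52%) fell, against 24.5% and 25.7% of all genes. In tTregs 29 of the 126 rose and 2 fell, against 11.9% and 10.0% of all genes. The cytosolic aminoacyl-tRNA synthetases, which load amino acids onto tRNA, rose in 18 of 20 cases in Tconvs. In tTregs limma called 0 of the 20, 6 having an unadjusted p under 0.05 and edgeR and DESeq2 calling 0. The interaction was called positive for 16 of the 20, against 17.0% of all genes. The largest rise was that of *Wars*, the tryptophan enzyme, from 663 ± 33.1 to 3801 ± 100.4 normalized counts (2.52 ± 0.09, SE, on the log2 scale, adjusted p = 1.38e-11). In the list of nucleotide salvage and deoxynucleotide genes 16 of 28 rose and 3 fell in Tconvs and 11 rose in tTregs, where *Rrm2*, a subunit of ribonucleotide reductase, went from 81.4 ± 13.1 to 382 ± 18.6 normalized counts (2.23 ± 0.11, SE, on the log2 scale, adjusted p = 1.81e-08). The other polyamine genes were led in Tconvs by *Eif5a*, the translation factor modified with a spermidine moiety, which went from 4984 ± 124 to 22604 ± 918 normalized counts (2.18 ± 0.16, SE, on the log2 scale, adjusted p = 1.94e-08).

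In resting iTregs 68 of the 126 (54.0%) were higher and 19 (15.1%) lower than in resting Tconvs, against 32.8% and 30.8% of all genes, and 56 (44.4%) were higher and 31 (24.6%) lower than in resting tTregs, against 32.3% and 31.1%. On restimulation 5 (3.97%) rose and 9 (7.14%) fell, shares near those of all genes (6.70% and 6.13%) and so no result about the list. Of the falls 4 were aminoacyl-tRNA synthetases, led by *Cars*, the cysteine enzyme, from 1167 ± 13.4 to 657 ± 20.7 normalized counts (-0.83 ± 0.07, SE, on the log2 scale, adjusted p = 5.1e-07). *Atf3*, a stress-induced transcription factor of the ATF family, went from 195 ± 21.2 to 704 ± 49.2 normalized counts (1.85 ± 0.09, SE, on the log2 scale, adjusted p = 1.97e-09) on restimulation, and *Smox*, which oxidizes spermine, went from 228 ± 39.1 to 599 ± 53.3 normalized counts (1.40 ± 0.13, SE, on the log2 scale, adjusted p = 2.06e-06). Both were lower again under the inhibitors, *Atf3* by 1.07 with the ORAI inhibitor and 0.80 with CsA, and *Smox* by 0.88 and 0.76 on the log2 scale. Against restimulated iTregs, 0 of the 126 rose and 3 fell with the ORAI inhibitor, and 1 rose and 3 fell with CsA. Counts this small were near the background, which was 1.50% higher and 1.79% lower with the ORAI inhibitor and 1.57% higher and 1.35% lower with CsA, and are no result about the list. Of the genes with a positive log2 fold change with the ORAI inhibitor, called or not, 9 had an unadjusted p under 0.05 in limma, and edgeR and DESeq2 called 0. *Ddit3*, the stress-response factor CHOP, was the one that rose with CsA, from 332 ± 41.6 to 488 ± 25.2 normalized counts (0.56 ± 0.11, SE, on the log2 scale, adjusted p = 0.00623). Between the inhibitors limma called 0 of the 126, 19 having an unadjusted p under 0.05 and edgeR and DESeq2 calling 0, where limma called 0.0991% of all genes higher and 0.261% lower with the ORAI inhibitor.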

How the data were processed

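RNA was measured in 24 libraries made by a modified SMART-seq2 protocol, which does not mark strand, out of 40 samples in the series, and the ATAC-seq and CUT&Tag samples were not analysed here. Per the labels and the methods of the study, the authors trimmed reads with cutadapt 1.18, used STAR 2.5.3 and RSEM 1.3.0 on mm10, and used DESeq2 1.26 for normalization. The deposited values are a signal, gene counts divided by 1 size factor per library. Division by the lowest value above 0 in each library gave whole reads for 100% of values (tolerance 0.01), so that depth was known. No column of the table was left unmapped to a sample.

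Values were tested as log2(normalized count + 1) with limma 3.58.1 (trend, R 4.3.3), keeping genes at 10 or more in at least 3 libraries of the fit, with Benjamini-Hochberg adjustment over all genes tested. Tconvs, tTregs and resting iTregs (15 libraries) were fitted together, and the 12 iTreg libraries in a second fit. A call needed an adjusted p under 0.05 together with a log2 fold change beyond 0.5 either way. An exact permutation test of 3 against 3 libraries cannot go below 0.1. edgeR 4.0.16 and DESeq2 1.42.0 were run on the recovered reads, where edgeR called 5798 genes for Tconv activation, 2449 for tTreg activation and 1423 for restimulation. Other alternatives were other pseudocounts, filters, scalings, fold thresholds, sample sets, a replicate block and leaving out each library. Variance between replicates was 2.69 to 36.3 times that of counting, largest in tTregs, whose libraries were also the shallowest (medians of 7582032 and 7131717 reads). The script was tested on simulated data.

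The members and the other pathway lists were chosen with earlier results of these data known. Values in every library are given for the member with the largest called change of its role in a comparison, for paralog pairs and for the ATF4 group, and a few more were chosen after their values were seen. Of the other lists the gene with the largest called rise or fall was named. Gene positions are those of GENCODE M21 (GRCm38), levels per kilobase use the union of exons, and promoters are from RefSeq. Figures were drawn with matplotlib 3.10.9.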

Additional observations from a re-analysis of the deposited data

Results flagged for a closer look

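The response to activation differed between Tconvs and tTregs, by the interaction in limma, for 27 of the 41 genes tested. The difference was called positive for 25 and negative for 2 (background 17.0% higher and 17.7% lower). The values are log2 fold changes in Tconvs minus those in tTregs. Among the carriers they were 2.29 for *Slc7a5*, 1.02 for *Slc7a1* and -0.63 for *Slc38a2*. For asparagine, serine and aspartate synthesis they were 2.98 for *Asns*, 1.46 for *Phgdh*, 3.43 for *Psat1*, 0.91 for *Psph*, 1.77 for *Got1* and 1.02 for *Got2*. For the one-carbon genes they were 2.80 for *Shmt1*, 1.13 for *Shmt2*, 1.59 for *Mthfd1* and 1.60 for *Mthfd2*, and for spermidine synthase, *Srm*, 3.15. For the purine genes they were 1.26 for *Ppat*, 0.89 for *Gart*, 1.78 for *Pfas*, 0.52 for *Paics*, 1.76 for *Atic*, 1.08 for *Impdh2* and 0.87 for *Gmps*, and for the pyrimidine genes 1.71 for *Cad*, 1.21 for *Umps* and 1.37 for *Ctps*. In the ATF4 group they were 4.71 for *Chac1*, 1.38 for *Sesn2* and -1.75 for *Trib3*. *Gart* shares 19.7% of its exon bases with the overlapping gene *Gm15964*. The tTreg libraries were shallower and more variable than the Tconv libraries, and the part of this in the differences was not tested.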

How the results depend on the processing

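The direction of every member called in any of the 11 comparisons held in all settings tried, and most calls lost were lost to the stricter fold threshold (70 of 122). The counts that follow show only how the calls depend on the setting. They are not set against the shares of all genes and are no result about the members as a set. With the adjusted p alone, the members called were 19 in place of 12 for tTreg activation, 25 in place of 16 for resting iTregs against activated Tconvs, 21 in place of 10 for restimulation, 8 in place of 2 for the ORAI inhibitor and 8 in place of 1 for CsA. At a log2 fold change above 1 they were 0, 7, 2, 0 and 0 in that order, 18 in place of 29 for resting iTregs against resting tTregs and 0 in place of 1 between the inhibitors. With a filter of 100 the ORAI inhibitor had 1, since *Chac1* was not tested there. Without each library in turn the counts ranged from 33 to 34 for Tconv activation, 8 to 13 for tTreg activation, 26 to 28 for their difference, 17 to 19 for resting tTregs against resting Tconvs, 31 to 32, 15 to 17 and 29 to 30 for resting iTregs against resting Tconvs, activated Tconvs and resting tTregs, and 9 to 11 for restimulation. They stayed at 2, 1 and 1 for the inhibitor comparisons. Beside the calls named in the report, those of *Psat1* and *Psph* against activated Tconvs were lost under quantile normalization (0.45 and 0.50). The condition for taking replicate numbers as pairs, every pair of deviations correlating above 0.1, was met in no comparison, and the labels do not say what a number marks. The mean correlation was -0.007 in the first fit, against 0.003 for other pairs, but 0.15 against -0.08 in the iTreg fit (0.099 to 0.30 between CsA and restimulated iTregs). With the replicate number as a block, the counts were 34, 13, 27, 18, 32, 16, 29, 10, 2, 1 and 1, in the order Tconv activation, tTreg activation, their difference, resting tTregs against resting Tconvs, resting iTregs against resting Tconvs, activated Tconvs and resting tTregs, restimulation, ORAI inhibitor, CsA and inhibitors against each other. Depth limits *Slc7a11*, with at most 11 reads, and the low levels of *Chac1* and *Srm*.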

Other observations

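Some members followed the replicate number across groups. *Srm* was lowest in replicate 3 in 8 of 8 groups, *Slc7a5*, *Slc1a5* and *Impdh1* were lowest in replicate 3 in 6 of 8, and *Ctps* was highest in replicate 3 in 7 of 8. What a replicate number marks is not stated in the labels, and these genes were chosen after their values were seen.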
